A study of Mus musculus with 12 samples.

Results

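The replication-dependent histone genes make the core and linker histones that package newly copied DNA. They lie in clusters that the mouse annotation calls Hist1 to Hist4, and 67 of the 54532 genes in the deposited table belong to them, taken as every protein-coding gene whose symbol starts with Hist1h, Hist2h, Hist3h or Hist4h. By product, 6 encode linker histone H1, 18 encode H2A, 18 encode H2B, 12 encode H3 and 13 encode H4. The Hist1 cluster on chromosome 13 holds 54 members, the Hist2 cluster on chromosome 3 holds 10, the Hist3 genes on chromosome 11 are 2 and the Hist4 gene on chromosome 6 is 1. The coordinates in the table equalled those of GENCODE M21 on GRCm38 for all 67. In most cell types these mRNAs are unusual in that they carry no poly(A) tail. They end a few bases after a short hairpin, the stem-loop, which is bound by the stem-loop binding protein encoded by Slbp, and they accumulate in S phase, when DNA is replicated. Some histone genes also give longer, polyadenylated mRNAs, mainly in cells that have left the cell cycle.

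Macrophages were grown in CSF-1 from the bone marrow of C57BL/6J mice, wild type and aged 2 to 3 months, and cultured to confluence. All groups received 10 µg/ml of antibody for 24 h, and 3 libraries were made for each of 4 groups: control IgG or a neutralizing antibody to ITGA5 (integrin alpha 5, the fibronectin receptor subunit), each on dishes with no coating or with fibronectin coating. The labels number 3 replicates in every group and do not say which of them share a mouse or a culture day, so the p-values measure the spread between these samples. The mRNA was enriched with oligo(dT) beads before sequencing, which retain RNA with a poly(A) tail, so counts on these genes are the part of their RNA that passed this selection together with any RNA carried through it, and not the level of the whole histone mRNA pool. Counts on genes ranged from 12954342 to 22075432 per library. All 9 macrophage markers examined had at least 10 counts in every library, with a summed CPM (counts scaled to a library of 1000000) of 9962 to 15131. Markers of other cells summed to 1.67 to 4.0 CPM for neutrophils (8 genes, of which Ly6g was at 0 throughout), 1.71 to 3.57 for fibroblasts (8 genes), 2.86 to 6.60 for B cells (4 genes), 17.1 to 25.6 for endothelium (3 genes), 4.82 to 7.73 for progenitors and mast cells (3 genes), 0.458 to 1.28 for dendritic cells (3 genes) and 0 to 0.0742 for T and NK cells (3 genes, of which Cd3d was at 0 throughout). At least 10 counts in every library were reached by 1 neutrophil, 1 fibroblast, 1 B cell, 2 endothelial and 1 progenitor marker. In these bulk samples, fewer cells of a type and less RNA per cell cannot be told apart.

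Stem-loop sequences are shown for the members with the most reads and for representatives of the remaining ones, because the end of the transcript decides whether an mRNA can be held on oligo(dT). Sequences were read from the GENCODE M21 transcripts, and capitals mark a match to the histone stem-loop, written as GGNNCT, then TTTN, then AGNNCC without gaps, and searched on the transcript strand only. The first 3 belong to abundant members of the H1, H4 and H2A families, and lie at chr13:23739507-23739536 (plus strand), chr13:22040957-22040986 (minus strand) and chr11:58955167-58955196 (plus strand) of GRCm38. The last 3 belong to an H2B, an H3 and an H4 gene at chr13:22043633-22043662 (plus strand), chr13:23745038-23745067 (minus strand) and chr13:23531453-23531482 (plus strand).
Hist1h1c: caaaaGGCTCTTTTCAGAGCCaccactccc
Hist1h4i: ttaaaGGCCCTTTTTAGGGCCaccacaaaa
Hist3h2a: ccaaaGGCTCTTTTCAGAGCCacccacaac
Hist1h2bj: ccaaaGGCTCTTTTCAGAGCCacgcacaat
Hist1h3c: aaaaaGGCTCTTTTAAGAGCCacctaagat
Hist1h4h: ccaaaGGCCCTTTTCAGGGCCgcccacatt

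The match was present in the annotated transcripts of 44 of the 67 members, against 0.329% of the 21901 protein-coding genes of the reference, a count that includes the members. The most common form, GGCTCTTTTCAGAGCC, occurred in 26 members, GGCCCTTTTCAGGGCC in 7 and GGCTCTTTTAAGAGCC in 6. Among the 23 members without a match, the models of 11 stop at the end of the coding sequence and hold no untranslated region, so for these the window does not reach the place where a stem-loop would lie. Annotated transcripts often ran on well past the hairpin, by 840 bases in Hist1h1c, 330 in Hist1h4i and 1643 in Hist3h2a, but by 23 in Hist1h2bj, 74 in Hist1h3c and 46 in Hist1h4h. The polyadenylation hexamer AATAAA was found in the last 50 bases of a transcript of 14 members (20.9%), against 65.7% of all protein-coding genes. The 11 models without an untranslated region end before the place where it would lie. Any coding transcript of a gene could give the match, so genes with more transcripts had more ends to match. The hexamer is shown for the 3 of the 5 most abundant members that hold it, at chr13:23740330-23740359, chr3:96223705-96223734 and chr11:58956785-58956814, all on the plus strand.
Hist1h1c: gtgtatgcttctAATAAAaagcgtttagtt
Hist2h2be: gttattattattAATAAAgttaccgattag
Hist3h2a: aggtatatgcccAATAAAataagagtacgt

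Of the 67 members, 59 had a count in at least 1 library, 17 in every library and only 5 had 10 or more counts in every library. The detected members were all 6 H1 genes, 15 of 18 H2A, 15 of 18 H2B, 10 of 12 H3 and all 13 H4 genes. The 8 members at 0 in all libraries were Hist2h2aa1, Hist2h2aa2, Hist2h3c1, Hist2h3b, Hist2h2bb, Hist1h2br, Hist1h2ba and Hist1h2aa, where a count of 0 allows up to 3 counts, or 0.136 CPM in the deepest library and 0.232 CPM in the shallowest. Near-identical copies bear on this count. In 6 members every window of 150 bases, the length of a read, was found in another gene, and 5 of these were among the members at 0, while the remaining one, Hist1h2bq, had 1 count in all. A further 13 members shared no such window, including Hist1h1c, Hist2h2be and Hist1h1d. Levels of members with much shared sequence are therefore uncertain, since reads that fit several genes may have been given to none of them.

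Reads were concentrated in 5 members. Hist1h1c, which encodes the linker histone H1.2, held 41.8% of all counts on these genes, followed by the H2B genes Hist2h2be (13.4%) and Hist1h2bc (10.8%), the H4 gene Hist1h4i (5.30%) and the H2A gene Hist3h2a (3.42%). These shares are over all libraries together, and Hist1h1c held 439 of 2264 member counts in replicate 2 of anti-ITGA5 without fibronectin but 565 of 1048 in replicate 2 of IgG without fibronectin. The 5 genes named are also the members with at least 10 counts in every library. No H3 gene was among them, and the H3 gene with most reads, Hist1h3c, averaged 11.7 counts per library. Per length, on the deposited FPKM scale (fragments per kilobase of gene, scaled to library size), the mean level over the 12 libraries was 17.6 for Hist1h1c, 6.15 for Hist1h2bc, 4.77 for Hist1h4i and 3.32 for Hist2h2be. Hist3h2a, a long gene model, was at 1.04 and stood below the short H4 gene Hist1h4k at 2.07 and the H2B gene Hist1h2bj at 1.95. The mean of Hist1h4k is drawn up by replicates 2 and 3 of anti-ITGA5 without fibronectin (14.7 and 4.06 FPKM), since it was at 0 to 1.11 in the other 10 libraries, where Hist3h2a was at 0.728 to 1.26. Hist3h2a overlaps Trim17 on the same strand, which had up to 26 counts, so its reads are uncertain.

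The summed level of all members differed little between 10 of the 12 libraries and was higher in the remaining 2. Levels were expressed as CPM scaled by the trimmed mean of M values (TMM). Summed CPM of the 67 members was 55.9, 59.6 and 61.9 in the uncoated IgG libraries, 58.7, 60.6 and 56.0 in the coated IgG libraries, and 48.8, 56.9 and 49.3 in the coated anti-ITGA5 libraries. In anti-ITGA5 without fibronectin it was 56.8 in replicate 1, 168 in replicate 2 and 81.6 in replicate 3. The high sum of these 2 libraries did not lie in the 5 abundant members, whose summed CPM was 53.9 in replicate 2 and 51.5 in replicate 3, between the lowest (40.5) and highest (54.4) of the other libraries. It lay in the other 62 members, which together reached 114 CPM (1538 counts) in replicate 2 and 30.1 CPM (615 counts) in replicate 3, compared with 6.82 to 10.6 CPM (119 to 197 counts) in each of the other 10 libraries. Replicate 1 of the same group was at 8.06 CPM.

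**Figure D1:**
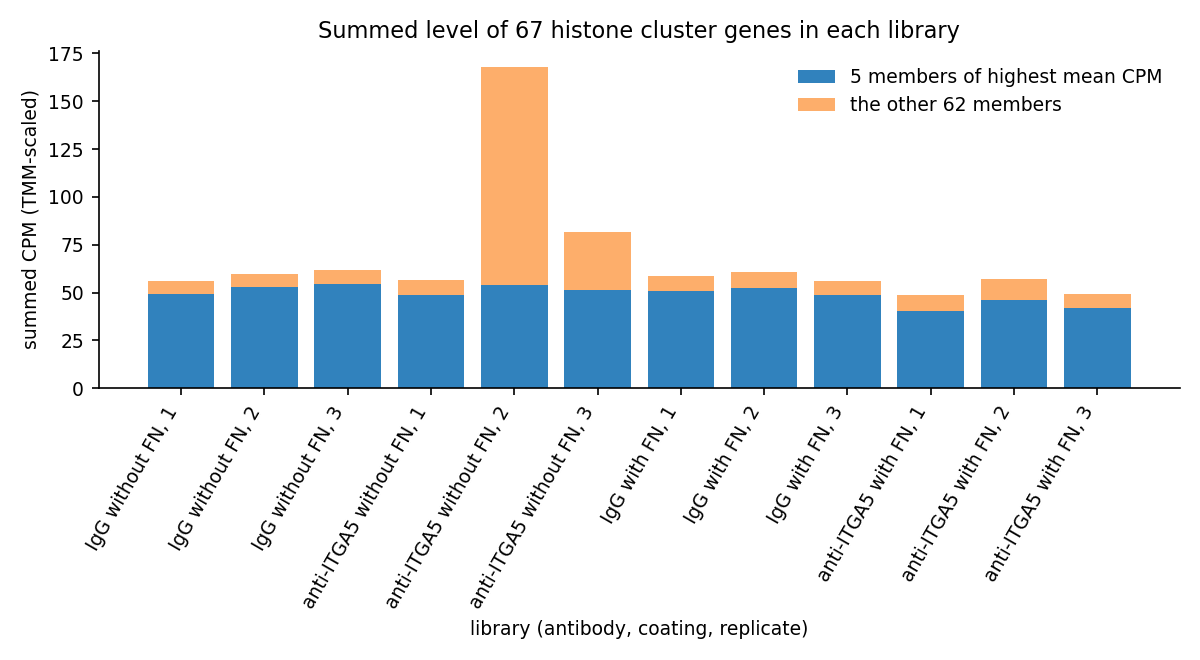
Summed CPM (TMM-scaled, vertical axis) of the 67 histone cluster genes in each of the 12 libraries (horizontal axis, FN meaning fibronectin coating), with the 5 members of highest mean CPM in blue and the other 62 in orange. The blue part stays between 40.5 and 54.4 in all libraries, while the orange part is 114 and 30.1 in replicates 2 and 3 of anti-ITGA5 without fibronectin and at most 10.6 elsewhere.

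Many members of every family were high in the same libraries. In replicate 2 of anti-ITGA5 without fibronectin 44 members had at least 10 counts and in replicate 3 there were 34, against 5 to 10 in each of the other libraries. Of the 59 detected members, 48 had their single highest CPM in replicate 2, where 23.7% of all detected genes had theirs. Without the 5 abundant members, summed H1 was 24.4 and 3.92 CPM in replicates 2 and 3 against 0.517 to 1.66 in the others, H2A was 13.7 and 3.72 against 1.08 to 2.64, H2B was 26.4 and 7.69 against 1.20 to 2.90, H3 was 24.9 and 6.27 against 1.22 to 2.12, and H4 was 24.7 and 8.52 against 0.822 to 1.89. Both libraries were thus above each of the other 10 in all 5 families.

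Members with and without a hairpin match took part. Leaving out the 5 abundant members, the 26 whose annotated transcript ends within 300 bases of the hairpin had 532 and 260 counts in these 2 libraries and 60 to 91 in the others. The 15 with a longer extension had 560 and 195 counts against 22 to 66, and the 21 without a match had 446 and 160 against 20 to 40.

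Classes of RNA other than mRNA, most of them made without a poly(A) tail, were compared in the same libraries, and Rn7sk was high in both. Rn7sk, the 7SK RNA, a small nuclear RNA that holds the elongation factor P-TEFb inactive, had 859 counts in replicate 2 and 481 in replicate 3, against 3 to 13 in the other 10 libraries, where replicate 1 had 5. The annotated misc_RNA class was at 88.2 and 31.6 CPM against 8.06 to 11.7, but it includes Rn7sk, which alone was at 63.7 and 23.6 CPM. A list of 8 RNAs without a poly(A) tail, Rn7sk among them, summed to 64.0 and 24.1 CPM, so its other genes added little. Small Cajal body RNAs reached 33.6 CPM in replicate 2 but 3.63 in replicate 3, inside the range of 1.69 to 3.79 of the other libraries, and small nuclear RNAs were at 67.3 and 28.7 CPM against 26.5 to 33.4. Ribosomal RNA went the other way between them, with 300.2 CPM in replicate 2 and 4352 in replicate 3 against 290.0 to 682.0, and so did mitochondrial ribosomal RNA, with 63.6 and 625 CPM against 270 to 338. Small nucleolar RNAs were at 84.1 and 43.5 CPM against 41.6 to 49.9. Replicate 2 also had the lowest number of counts of the series, and the distance between replicate pairs of this group was 10.4 to 23 per gene in the chi-square of their counts, compared with 2.65 to 7.45 in the other groups. The summed CPM of 4 erythroid markers was 1.93 in replicate 2 and 0.441 in replicate 3, against 0.0572 to 0.796 in the other 10 libraries. The part of these library properties in the histone values was not tested, and the members that edgeR called in this group are given below with and without the 2 libraries. Other values of this group include them unless stated. Counts of members with every gene fitted, with DESeq2 and of groups that did not overlap were made with them only.

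**Figure D2:**
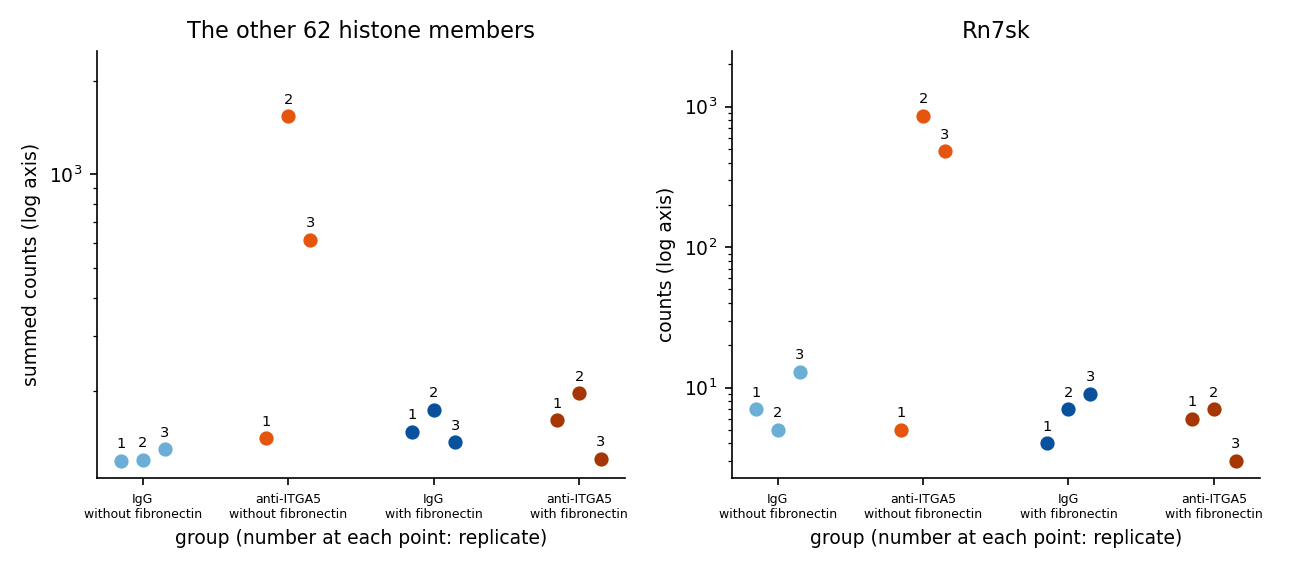
Counts of the 62 less abundant histone members, summed (left), and of Rn7sk (right) in each library, on log axes, with 1 point per library, the replicate number above it and the group on the horizontal axis. Replicates 2 and 3 of anti-ITGA5 without fibronectin are the highest in both panels (1538 and 615 summed histone counts, 859 and 481 Rn7sk counts), and the other 10 libraries lie at 119 to 197 and at 3 to 13.

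Single members showed the difference between the abundant 5 and the rest. Hist1h1c (chr13:23738808-23740367) was at 27.7, 32.1 and 30.8 CPM in the uncoated IgG libraries, and anti-ITGA5 on the same dishes gave 28.7, 32.6 and 29.8. With fibronectin it was at 26.5, 29.1 and 25.7 in IgG and at 21.1, 24.9 and 22.5 in anti-ITGA5. The groups overlapped on uncoated dishes, and on fibronectin all anti-ITGA5 libraries were below all IgG libraries.

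Hist2h2be (chr3:96221119-96223738), an H2B gene, was at 8.95, 8.70 and 10.0 CPM in IgG and 7.44, 7.79 and 7.94 in anti-ITGA5 without fibronectin. With fibronectin the values were 9.71, 11.6 and 9.96 in IgG and 7.29, 9.04 and 6.39 in anti-ITGA5. On both coatings every anti-ITGA5 library was below every IgG library.

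Hist1h2bc (chr13:23684199-23692908), also an H2B gene, was at 7.44, 6.31 and 7.81 CPM in IgG and 7.03, 8.31 and 7.30 in anti-ITGA5 without fibronectin, and with fibronectin at 8.18, 6.83 and 6.17 in IgG and 6.42, 6.67 and 7.30 in anti-ITGA5. The H4 gene Hist1h4i (chr13:22040636-22041362) was at 3.37, 3.01 and 3.27 CPM in IgG and 3.43, 2.97 and 3.87 in anti-ITGA5 without fibronectin, and with fibronectin at 3.98, 2.54 and 4.06 in IgG and 4.06, 3.82 and 3.41 in anti-ITGA5. The H2A gene Hist3h2a (chr11:58954685-58956830) was at 1.57, 2.62 and 2.53 CPM in IgG and 2.12, 2.23 and 2.55 in anti-ITGA5 without fibronectin, and at 2.29, 2.49 and 2.71 in IgG and 1.64, 1.88 and 2.37 in anti-ITGA5 with fibronectin. For these 3 members the IgG and anti-ITGA5 groups overlapped on both coatings.

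Hist1h1e (chr13:23620629-23622558), the gene of linker histone H1.4, had 1, 0 and 1 counts with IgG and 4, 124 and 21 with anti-ITGA5 on uncoated dishes, and 5, 3 and 4 counts with IgG and 2, 9 and 6 with anti-ITGA5 on coated dishes. Its gene model overlaps that of the H2B gene Hist1h2be on the same strand, which had 78 and 21 counts in the 2 high libraries and 2 to 9 elsewhere, so reads in the shared stretch cannot be assigned. Hist1h1d (chr13:23553262-23560686), the gene of linker histone H1.3, had 7, 4 and 8 counts in IgG and 19, 77 and 19 in anti-ITGA5 without fibronectin, and 8, 14 and 1 in IgG and 10, 10 and 7 in anti-ITGA5 with fibronectin. It is a member in which replicate 1 of anti-ITGA5 without fibronectin was also above every IgG library. Hist1h2bj (chr13:22043214-22043676), an H2B gene, had 8, 8 and 17 counts in IgG and 7, 49 and 16 in anti-ITGA5 without fibronectin, and 14, 16 and 13 in IgG and 14, 20 and 4 in anti-ITGA5 with fibronectin.

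Apart from Hist1h2be, given above, the highest count of the remaining named members in replicate 2 of anti-ITGA5 without fibronectin was 83 for Hist1h1b (H1.5). It was followed by 63 for Hist1h4k, 52 for Hist1h2bg and 47 for Hist1h3a. In replicate 3 these members had 30, 26, 24 and 17 counts, and in the other 10 libraries none of the 62 less abundant members exceeded 20. Among the plotted members the H2A gene Hist1h2ae lay within the 1 to 17 counts of the others in both libraries, with 10 and 16. Hist1h2bj (16) and Hist1h1d (19) did so in replicate 3 only, where the others reached 20 and 19. A few rarely counted genes also did not follow. The H3 gene Hist2h3c2 had 3 and 4 counts there and up to 14 elsewhere, and Hist1h2bp had 0 and 3.

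**Figure D3:**
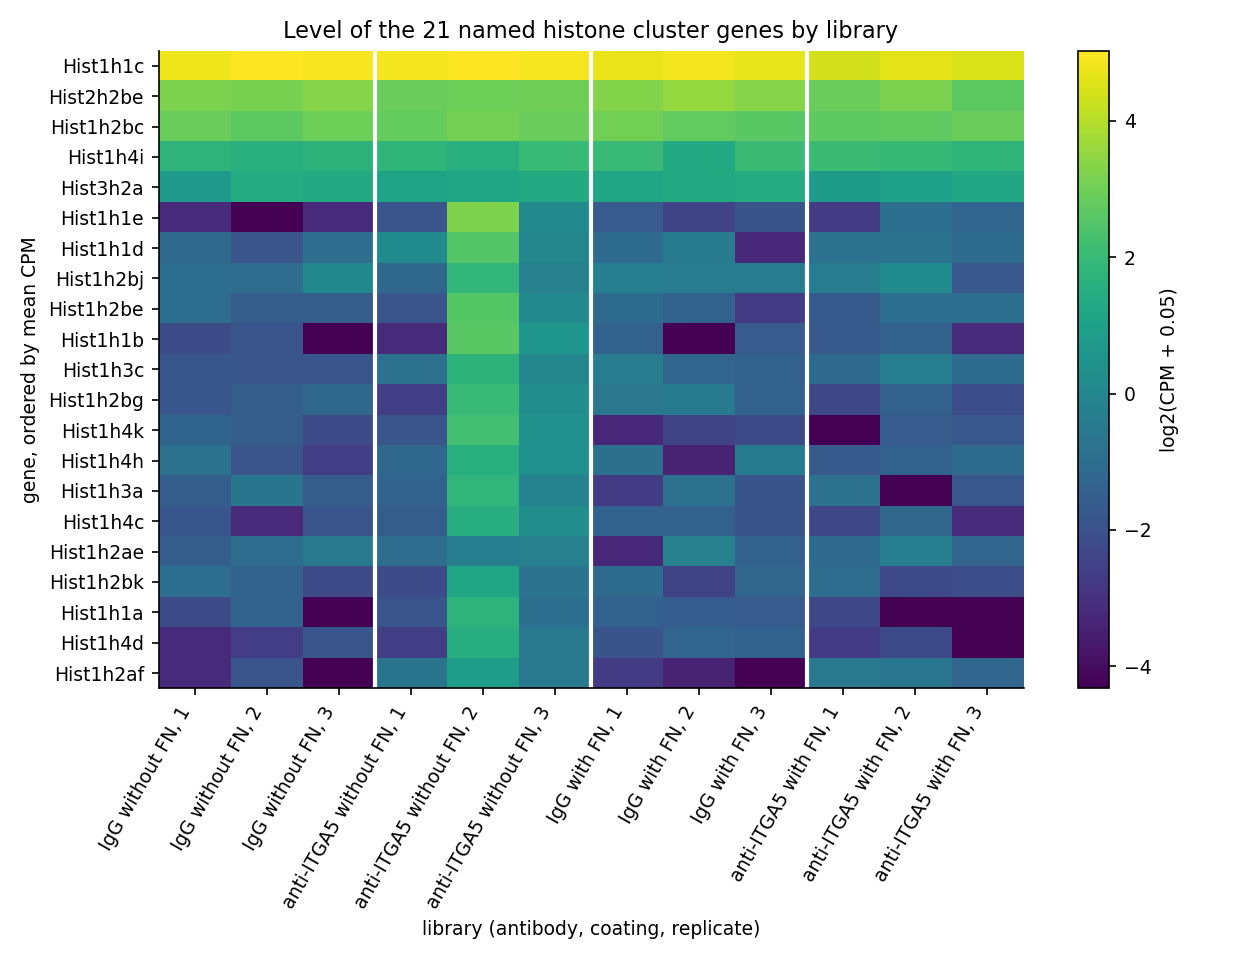
Level of the 21 named histone cluster genes (rows, ordered by mean CPM) in the 12 libraries (columns, FN meaning fibronectin coating), coloured by log2(CPM + 0.05), with white lines between groups. The top 5 rows are even across libraries, and each row under them is brightest in replicate 2 of anti-ITGA5 without fibronectin, apart from Hist1h2ae; the members were picked by mean CPM over all libraries, which that library raises.

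The first comparison addressed whether ITGA5 neutralization changes these genes on uncoated dishes. Genes were tested with edgeR's quasi-likelihood test on the counts of the 6 libraries of the comparison, after removal of genes with low counts, and called at an adjusted p (Benjamini-Hochberg, over all genes tested) of at most 0.05. Only 9 of the 67 members had enough counts to be tested. Hist1h2af, an H2A gene, and Hist1h1d were called higher, against 11.0% of all genes tested, and edgeR and DESeq2 (25 members with an adjusted p) both called 0 members lower, where edgeR called 9.79% of genes. Both called members passed the count filter only through their anti-ITGA5 libraries, so they could enter the test only by being higher there, and nothing is read from their number. At an unadjusted p under 0.05 there was 1 member lower, Hist2h2be. The median log2 fold change of the 9 members was 0.095, and that of all genes 0.0090. Without the 2 libraries that stood apart the member median was −0.045, with 6 of 14 members above 0, and that of all genes −0.0064.

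Hist1h2af had 1, 4 and 0 counts in IgG and 10, 24 and 13 in anti-ITGA5, a log2 fold change of 3.23 (SE 0.79, n = 3 libraries per group, edgeR adjusted p = 0.0152). For Hist1h1d the log2 fold change was 2.75 (SE 0.74, edgeR adjusted p = 0.0233). Given how they entered the test, these values are a description of the 6 libraries. Without the 2 libraries that stood apart the log2 fold changes were 2.5 and 1.57, with edgeR adjusted p values of 0.0878 and 0.138, and 0 members were called among 14 tested, against 8.85% of genes higher and 6.54% lower in that fit, which takes the lone anti-ITGA5 library to vary like the other groups. Of Hist1h2af, 58.4% of the 150-base windows occur in other genes.

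The 5 abundant members were not called in this comparison. Hist1h1c differed by 0.0043 (SE 0.080), Hist1h2bc by 0.064 (SE 0.13), Hist1h4i by 0.095 (SE 0.21) and Hist3h2a by 0.039 (SE 0.27) on the log2 scale. Hist2h2be fell short of the threshold at −0.26 (SE 0.11, edgeR adjusted p = 0.126). Hist1h2bj was at 1.27 (SE 0.72, edgeR adjusted p = 0.248) and Hist1h2ae at 0.52 (SE 0.43, edgeR adjusted p = 0.443). Without the 2 libraries that stood apart Hist1h2bj turned to −0.64 and Hist1h2ae was at 0.00011, and without replicate 2 alone Hist1h2bj was at −0.067. CPM of the 2 groups did not overlap in 12 members higher and 1 member lower of 58 with a count, against 11.5% and 11.1% of all genes.

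The number of members called on uncoated dishes depended on the count filter. When every gene with at least 1 count entered the edgeR fit, 34 of 58 members were called higher, against 5.69% of genes, among them Hist1h1e (log2 fold change 6.17), Hist1h1b (4.10), Hist1h4d (3.00) and Hist1h4c (2.93). DESeq2, which gave an adjusted p to 25 members and 12758 genes, called 13 members and 1094 genes higher. Both fits include the 2 libraries that stood apart and were not repeated without them, so nothing is read from the 34 or the 13. Hist1h1b, for example, had 3, 4 and 0 counts in IgG and 1, 83 and 30 in anti-ITGA5. The call of Hist1h1d was lost when any 1 IgG library was left out, and that of Hist1h2af without IgG replicate 1 or 3. Without replicate 1 of anti-ITGA5, 25 of 32 tested members were called, where 1001 of 13377 genes were, but the anti-ITGA5 arm is then only the 2 libraries that stood apart, whose counts also decide which members pass the filter, so nothing is read from that number, and without the 2 libraries 0 were, as given above. Leaving out IgG replicate 1 or IgG replicate 3 brought the count to 0 of 32 (846 of 13338 and 893 of 13307 genes) and leaving out IgG replicate 2 to 1 of 32 (1010 of 13309 genes). It stayed at 2 without anti-ITGA5 replicate 2 (10 members tested) or replicate 3 (9 tested).

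On fibronectin-coated dishes the direction of the called members was downward. Of 6 members tested, Hist1h1c and Hist2h2be were called lower in anti-ITGA5 than in IgG, against 13.2% of all genes, and 0 were called higher, against 14.4%. No member was higher at an unadjusted p under 0.05, and DESeq2 called 0 of 5 members with an adjusted p higher. The log2 fold change was −0.25 for Hist1h1c (SE 0.082, n = 3 libraries per group, edgeR adjusted p = 0.0423) and −0.46 for Hist2h2be (SE 0.14, edgeR adjusted p = 0.0252), and in both the 3 anti-ITGA5 libraries were below the 3 IgG libraries. The deposited FPKM of Hist1h1c averaged 17.3 ± 1.13 (SD, n = 3) in IgG and 14.6 ± 1.21 in anti-ITGA5, and that of Hist2h2be 3.97 ± 0.395 and 2.89 ± 0.517. The call of Hist1h1c was lost with DESeq2 (adjusted p = 0.0786), with total counts in place of TMM (edgeR adjusted p = 0.0880) and when IgG replicate 1 or 2 or anti-ITGA5 replicate 1 or 3 was left out. The call of Hist2h2be was lost without IgG replicate 2 or anti-ITGA5 replicate 1 or 3. Its adjusted p over all alternatives (edgeR, DESeq2 and limma) ranged from 0.00224 to 0.0977.

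Hist1h2bc (−0.054, SE 0.13), Hist1h4i (0.11, SE 0.20), Hist3h2a (−0.35, SE 0.22) and Hist1h2bj (−0.083, SE 0.43) were not called on fibronectin. The median log2 fold change of the 6 members was −0.16 and that of all genes −0.0038. Hist1h2af had too few counts for the filter, with 2, 1 and 0 in IgG and 12, 11 and 6 in anti-ITGA5, so that the groups did not overlap on fibronectin either. In the fit of every gene with at least 1 count it was called higher at a log2 fold change of 3.21 (edgeR adjusted p = 0.00133), the only member called higher there, against 7.48% of genes. CPM of the 2 groups did not overlap in 3 members higher and 5 lower of 54 with a count, against 12.4% and 13.0% of all genes. On this coating the counts of Hist1h2af do not rest on the libraries that stood apart, which are not in the comparison.

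**Figure D4:**
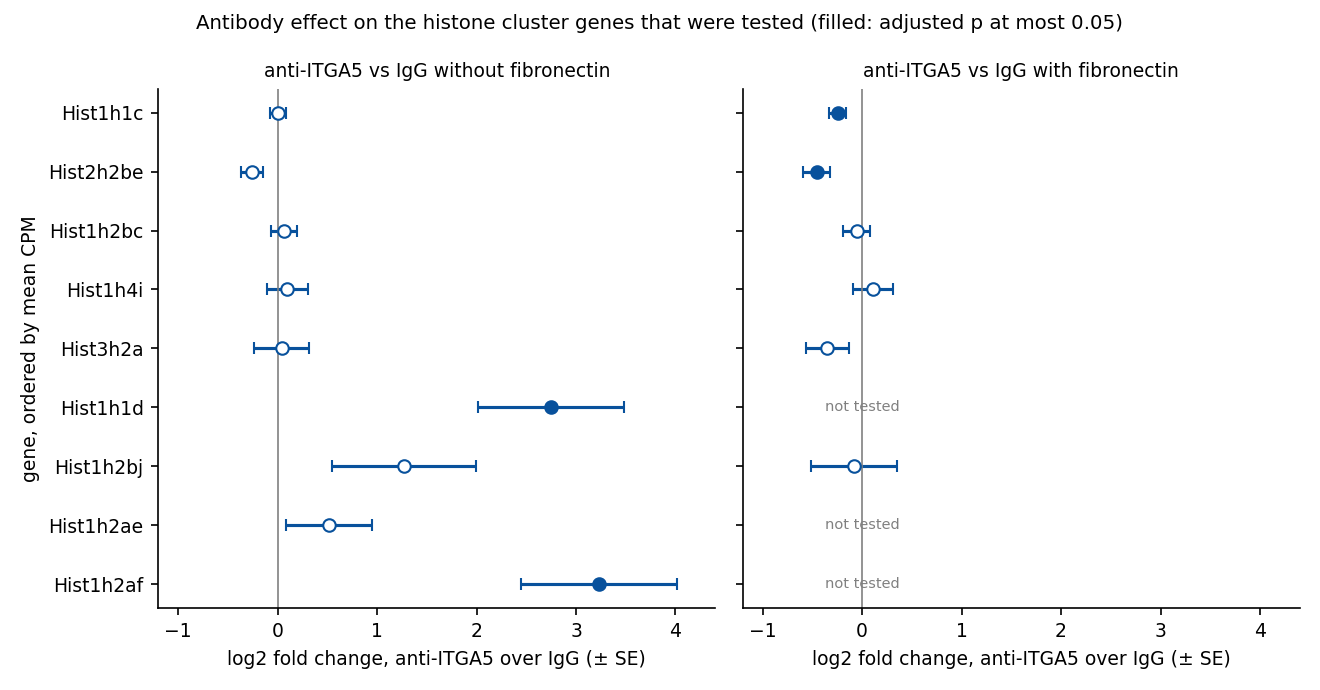
Log2 fold change of anti-ITGA5 over IgG (horizontal axis, bars are standard errors of the edgeR fit) for the histone members with enough counts to be tested (vertical axis), without fibronectin on the left and with it on the right; filled points have an adjusted p of at most 0.05. On the left Hist1h1d and Hist1h2af stand at 2.75 and 3.23, and on the right Hist1h1c and Hist2h2be stand at −0.25 and −0.46.

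Fibronectin coating was compared with no coating within each antibody, to ask whether the substrate changes these genes. In IgG 6 members were tested and 0 were called, against 0.325% of genes higher and 0.124% lower, and 0 had an unadjusted p under 0.05 in edgeR or DESeq2, which gave 0 of the members an adjusted p. The log2 fold changes were −0.16 (SE 0.076) for Hist1h1c, 0.18 (SE 0.11) for Hist2h2be, −0.030 (SE 0.14) for Hist1h2bc, 0.12 (SE 0.20) for Hist1h4i, 0.15 (SE 0.23) for Hist3h2a and 0.21 (SE 0.38) for Hist1h2bj. CPM of the 2 coatings did not overlap in 2 members higher and 4 lower of 53 with a count, against 5.29% and 6.17% of all genes. In anti-ITGA5 10 members were tested and edgeR called 0, as it called 0% of all genes, and DESeq2 called 0. An unadjusted p under 0.05 was seen for 3 members, Hist1h1c at −0.41 (SE 0.086), Hist1h1d at −2.33 (SE 0.71) and Hist1h3c at −1.50 (SE 0.65). Without the 2 libraries that stood apart these were −0.33, −1.13 and 0.045, and the log2 ratio of the summed CPM of all members, with over without fibronectin, went from −0.98 to −0.14. When every gene with at least 1 count entered the fit, 30 of 59 members were called lower with fibronectin, against 0.842% of genes. The uncoated arm of that fit holds the 2 libraries that stood apart. It was not repeated without them, so nothing is read from its number. CPM of the 2 coatings did not overlap in 0 members higher and 7 lower of 59 with a count, against 3.24% and 4.07% of all genes.

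Whether the antibody effect differed between the coatings was tested as an interaction over all 12 libraries. Of 13 members tested, 0 were called by edgeR in either direction, against 0% of genes higher and 0.0223% lower, and DESeq2 called 0. An unadjusted p under 0.05 was seen for 5 members, Hist1h1c, Hist1h1d, Hist1h2bg, Hist1h3c and Hist1h4h, and for 0 without the 2 libraries that stood apart. With every gene of at least 1 count in the fit, 6 members were called lower, against 0.116% of genes. That fit was made with the 2 libraries only, so nothing is read from its number. For Hist1h1c the interaction was −0.25 (SE 0.12, edgeR adjusted p = 0.9997), and for Hist1h2af, which was higher with the antibody in non-overlapping counts on both coatings, it was −0.032 (SE 1.12). Without the 2 libraries that stood apart these were −0.18 and 0.71.

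The summed level of all members was also compared between antibodies, with no test. The log2 ratio of the group means of summed CPM, anti-ITGA5 over IgG, was 0.79 without fibronectin, where the mean was 102 ± 58.3 (SD, n = 3) in anti-ITGA5 and 59.1 ± 3.01 in IgG, and −0.058 without the 2 libraries. With fibronectin it was −0.18, with 51.7 ± 4.55 in anti-ITGA5 and 58.4 ± 2.31 in IgG. On fibronectin the summed CPM of the 5 abundant members was 50.6 ± 1.99 in IgG and 42.9 ± 3.02 in anti-ITGA5, of which Hist1h1c is the larger part, and the other 62 were at 7.84 ± 0.367 and 8.74 ± 1.67.

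Genes that act with the replication-dependent histones are given as lists for comparison, beside the 11.0% of genes higher and 9.79% lower without fibronectin and the 14.4% higher and 13.2% lower with it. With total counts in place of TMM this split was 1838 higher and 940 lower of 12924 genes without fibronectin and 2407 and 1264 of 12916 with it. The macrophage markers moved with the antibody as well, with 4 of 9 lower and 1 higher without fibronectin and 5 lower and 1 higher with it. Lyz2, which encodes lysozyme, fell by 0.51 and 0.46 on the log2 scale and Mertk, a receptor for the uptake of apoptotic cells, by 0.48 and 0.41, while Cd14 rose by 0.46 and 0.25. The summed CPM of the 9 markers was 14443 ± 622 (SD, n = 3) in IgG and 11092 ± 1016 in anti-ITGA5 without fibronectin, and 14791 ± 179 and 11737 ± 31.3 with it, and the part of this in the list values was not tested. The replacement histones are made from genes outside the clusters, most of them from polyadenylated mRNAs and not only in S phase. With the antibody, 7 of 10 tested rose and 0 fell without fibronectin (median log2 fold change 0.59), and 7 of 11 rose and 1, H2afj, fell with fibronectin (median 0.39). H2afx, the histone phosphorylated at DNA breaks, rose by 1.74 (SE 0.083) without and 1.97 (SE 0.14) with fibronectin on the log2 scale, and Cenpa, the centromeric H3, by 1.75 (SE 0.12) and 1.68 (SE 0.16). H2afz rose by 0.58 and 0.51 and the linker histone gene H1f0 by 0.70 and 0.73. Of the genes for H3.3, H3f3b rose by 0.29 and 0.32 while H3f3a, at −0.086 and −0.067, was not called on either coating. In IgG without fibronectin H3f3b was at 157 ± 1.55 FPKM and H2afz at 99.0 ± 2.89 (SD, n = 3), where Hist1h1c was at 19.2 ± 1.44. Other replacement histones were below Hist1h1c, with H2afx at 11.0 ± 1.09 FPKM, Cenpa at 4.21 ± 0.839 and H1fx at 0.424 ± 0.193, and H1fx had too few counts to be tested without fibronectin.

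Of 15 genes of histone mRNA transcription, processing and decay, 4 rose and 0 fell without fibronectin and 5 rose and 0 fell with it, with medians of 0.13 and 0.15. Slbp was at 0.20 (edgeR adjusted p = 0.0582) and 0.17 (edgeR adjusted p = 0.0812), and Npat, the activator of histone gene transcription, at −0.054 and 0.15, so neither was called. Casp8ap2 was at −0.024 and −0.037. Eri1, a nuclease that trims the stem-loop end, rose by 0.18 and 0.27. Of 22 histone chaperones and related factors, 9 rose and 1 fell without fibronectin and 10 rose and 1 fell with it (medians 0.13 and 0.15). Asf1b, an H3-H4 chaperone, rose by 0.71 and 0.56 and Nasp, which holds soluble H3-H4, by 0.41 and 0.31. Chaf1a, the large subunit of chromatin assembly factor 1, rose by 0.22 without fibronectin and was at 0.22 with it (edgeR adjusted p = 0.0517), and Chaf1b was called on neither (0.070 and 0.058).

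The S phase list of 26 genes had 11 higher and 1 lower without fibronectin and 8 higher and 0 lower with it (medians 0.13 and 0.12). Pcna, the replication clamp, was at 0.10 and 0.038 and the helicase gene Mcm2 at 0.024 and 0.091, none of them called. All 15 genes of the G2/M list rose on both coatings, with medians of 1.57 and 1.51, and Mki67 rose by 1.44 (SE 0.12) and 1.35 (SE 0.12). Without the 2 libraries that stood apart the G2/M count on uncoated dishes was again 15 of 15, and the other lists had 6 higher of the replacement histones, 2 of the processing genes, 7 of the chaperones and 8 of the S phase genes, against 8.85% of genes higher in that fit. Fibronectin against no coating called 0 genes of these 5 lists in either antibody, where the background was at most 0.325% of genes. The target itself, Itga5, was not called, with log2 fold changes of 0.15 (edgeR adjusted p = 0.0906) without and 0.075 (edgeR adjusted p = 0.273) with fibronectin; a neutralizing antibody acts on the protein, so its mRNA checks no label.

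**Figure D5:**
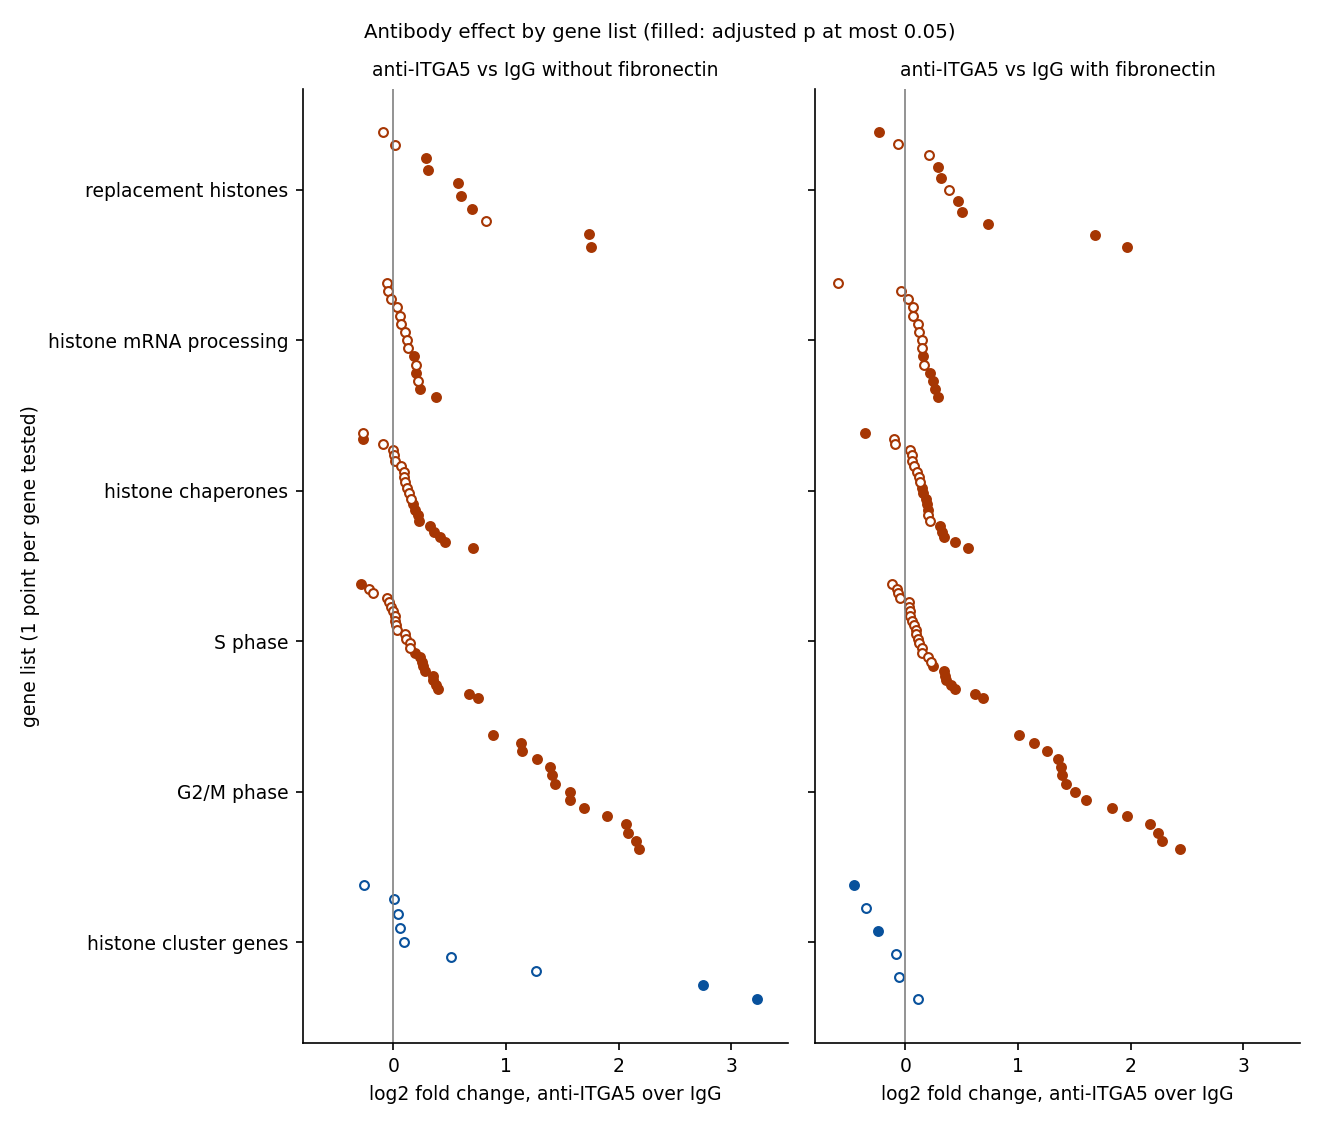
Log2 fold change of anti-ITGA5 over IgG (horizontal axis) for each tested gene of 5 lists and for the tested histone cluster genes (blue), 1 point per gene, without fibronectin on the left and with it on the right; filled points have an adjusted p of at most 0.05. All 15 G2/M genes lie above 0.88 on the left and above 1.01 on the right, while 8 of the 9 tested cluster genes lie above 0 on the left (6 of 14 without the 2 libraries that stood apart) and 5 of 6 lie below 0 on the right.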

How the data were processed

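RNA-seq of mouse bone marrow macrophages was analysed in 12 libraries, 3 in each of 4 groups. The authors made oligo(dT)-enriched libraries with a NEBNext Ultra kit and sequenced paired ends of 150 bases. Per the labels' processing notes TopHat2 2.0.9, HTSeq 0.6.1 and Cufflinks 2.1.1 were used on GRCm38.p6; the strand setting and annotation release are not given in the sources used here. The authors deposited read counts per gene, without normalization, and FPKM values per gene. Every entry named a gene.

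The members, gene lists and tests were chosen with earlier results of these data known. Groups were taken from the labels. Counts were tested with edgeR 4.0.16 (R 4.3.3), filterByExpr (minimum count 10, minimum total 15), TMM scaling and Benjamini-Hochberg adjustment over all genes, at 0.05. Each comparison used its own 6 libraries, and the interaction used 12. Named genes were the 20 members of highest mean CPM and every member called, with 8 given library by library, and a fixed set of related genes. Alternatives were DESeq2 1.42.0, its size factors, total counts, other filters, 1 fit of all libraries, a replicate block, limma 3.58.1 on log2(FPKM + 1), leaving out each library and, added later, leaving out 2 libraries. The tests were checked on simulated data. Motifs and shared 150-base windows were searched in GENCODE M21 transcripts. The floor for a count of 0 covers counting error only, as reads without molecular identifiers are not independent molecules.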

Additional observations from a re-analysis of the deposited data

How the results depend on the processing

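The number of members called higher with anti-ITGA5 without fibronectin (2) was 13 with DESeq2 (25 members and 12758 genes with an adjusted p, 1094 genes higher), 34 when every gene with at least 1 count was fitted, 0 with at least 10 counts in every library (5 members tested), 5 in 1 fit of all 12 libraries (1725 of 13455 genes), 1 with limma on log2(FPKM + 1) (1161 of 12924 genes), 0 to 25 when 1 library was left out (1001 of 13377 genes in the fit that gave 25) and 0 without the 2 libraries that stood apart, an alternative chosen after seeing the data; the cause was not tested, beyond the filters setting how many members entered. DESeq2 gave no adjusted p for Hist1h2af there. With fibronectin, 0 members were higher and 2 lower; 1 was higher with every gene fitted and in 1 fit of all 12 libraries and 0 to 1 when 1 library was left out, and 1 was lower with DESeq2 and with total counts and 0 to 2 when 1 library was left out. With every gene fitted, 30 members were lower with fibronectin in anti-ITGA5 and 6 in the interaction, in place of 0. These fits, and that of every gene for the antibody without fibronectin, include the 2 libraries and were not repeated without them. Of the 59 members detected, 8 had at least 10 counts in every library of a group and 13 passed the filter over 12 libraries. The log2 ratio of summed CPM for fibronectin in IgG, −0.017, was 0.12 without Hist1h1c, and without the 2 libraries the ratios were −0.058 for the antibody (from 0.79) and −0.14 for fibronectin in anti-ITGA5 (from −0.98). Leaving out 1 library gave 0.23 to 1.08, −0.25 to −0.14, −0.056 to 0.017 and −1.27 to −0.42 for the antibody without and with fibronectin and for fibronectin in IgG and anti-ITGA5.

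Between 2 groups, log2 fold changes that changed sign were not called, and most were near 0, except Hist1h2bj (1.27 for the antibody without fibronectin, −1.16 for fibronectin in anti-ITGA5), Hist1h3c (−1.50) and Hist1h2ae (−0.37), both for fibronectin in anti-ITGA5. For the antibody without fibronectin, Hist1h1c was −0.0013 with DESeq2, −0.0083 with every gene fitted and −0.066 without the 2 libraries, which also gave −0.024 for Hist1h2bc, −0.075 for Hist3h2a and −0.64 for Hist1h2bj; without the 2 libraries fibronectin in anti-ITGA5 gave 0.030 for Hist2h2be, 0.78 for Hist1h2bj, 0.045 for Hist1h3c and 0.16 for Hist1h2ae. In the interaction, leaving out the 2 libraries turned Hist1h2bg from −3.68 to 0.092, Hist1h2bj from −1.36 to 0.56, Hist1h2ae from −0.17 to 0.35 and Hist1h2af from −0.032 to 0.71. When 1 library was left out, the antibody without fibronectin gave −0.055 to 0.051 for Hist1h1c, −0.021 to 0.13 for Hist1h2bc, −0.0084 to 0.19 for Hist1h4i, −0.16 to 0.17 for Hist3h2a and −0.067 to 1.75 for Hist1h2bj. With fibronectin it gave −0.14 to 0.057 for Hist1h2bc, −0.096 to 0.22 for Hist1h4i and −0.56 to 0.29 for Hist1h2bj. Fibronectin in IgG gave −0.14 to 0.053 for Hist1h2bc, −0.0013 to 0.32 for Hist1h4i and −0.045 to 0.28 for Hist3h2a, and in anti-ITGA5 −0.17 to 0.077 for Hist2h2be and −1.65 to 0.20 for Hist1h2bj. Of all values under an alternative, 551 kept their direction and side of the threshold or moved little, 28 changed sign, 29 moved, 17 fell below the threshold and 2 passed it.

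The replicate numbers are shared between groups but name no animal or day, so they were taken as names only. Same-numbered libraries correlated between −0.020 and 0.149 in their deviations from the group means. All correlations were positive for the antibody on either coating and for fibronectin in IgG. Whether same-numbered libraries share a source was not tested. With the replicate block, 2 members were higher without fibronectin, 2 were lower with it and 0 were called for the coating or the interaction, as without it. Over all genes it moved the calls for fibronectin in IgG from 42 higher and 16 lower to 283 and 133. For the antibody they went from 1419 and 1265 to 1547 and 1421 without fibronectin, and from 1866 and 1699 to 2321 and 2217 with it. For fibronectin in anti-ITGA5 they went from 0 and 0 to 0 and 2, and in the interaction they stayed at 0 and 3.

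Depth limits the less abundant members: outside the 2 libraries the 62 members shared 119 to 197 counts per library.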
